A study of Rattus norvegicus with 2 samples.

Results

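This account covers the voltage-gated and potassium channel genes of cultured neonatal rat heart cells, chosen by symbol alone: every gene whose name follows the Kcn, Cacn, Scn or Hcn pattern of channel subunits. The rule found 131 members among the 16846 gene symbols of the deposited table. A further 6 symbols begin alike but are no members, among them the epithelial sodium channel genes Scnn1a, Scnn1b and Scnn1g. Of the members, 32 are on a list of channels known from the working myocardium or the pacemaker and conduction tissue of the heart, here called cardiac, and the other 99 are called non-cardiac.

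The anti-miR group is 1 library of ventricular cells from rats at postnatal day 0, transduced for 7 days with AAV2/9 carrying shRNAs directed against let-7 and against miR-99/100. The control group is 1 library of the same kind of cells, which one label calls transfected with an empty AAV and the protocol calls mock-transduced. Before plating, cells that settled on uncoated dishes were left behind, and the cultures are labelled cardiomyocytes. Strain, sex and the number of animals pooled are not given in the sources used here. With 1 library per group there is no replicate error, and every ratio below compares 2 libraries. The intervals beside the ratios are exact 95% Clopper-Pearson intervals that cover counting error only.

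The electrical cycle of a heart muscle cell is carried by sodium channels that start the action potential, L-type calcium channels that trigger contraction, and a series of potassium currents that end it. Each channel is built around a pore-forming subunit, and accessory subunits tune its gating and its passage to the membrane. Many relatives of these genes serve neurons, skeletal muscle, smooth muscle or immune cells instead.

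The miRNA families named in the labels were the targets of the virus. Mature sequences of members are shown so that the 2 targeted seeds can be read. The labels name let-7a and let-7c. The reference used held no mature miR-99a, so miR-99b is shown for miR-99. Sequences are those of RefSeq for build GRCr8, given 5′ to 3′ with the seed (bases 2 to 8) in capitals.
rno-let-7a-5p: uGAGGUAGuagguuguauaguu
rno-let-7c-5p: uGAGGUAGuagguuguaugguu
rno-miR-99b-5p: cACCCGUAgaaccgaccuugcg
rno-miR-100-5p: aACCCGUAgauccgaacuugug
The first pair shares the seed GAGGUAG and the second pair the seed ACCCGUA. The levels of the mature miRNAs were not analysed here, so the extent of their inhibition is not known.

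Depth was 14815847 reads on genes in the anti-miR library and 16031780 in the control. Genes with a read numbered 11367 in the anti-miR library and 10908 in the control, although the anti-miR library was the shallower. The cell type label was checked on 11 measured cardiomyocyte markers, which summed to 280 reads per 1000000 reads on genes (RPM) in the anti-miR library and 242 RPM in the control. Tnnt2, of cardiac troponin T, had 161 RPM in the anti-miR library and 147 RPM in the control, while Myh6, Myl3, Ryr2 and Tnni3 had between 5 and 23 reads in the anti-miR library and 0 in the control. Myh7 had 171 reads in the anti-miR library and 99 in the control, and Nppa had 139 and 91. Myl2, of ventricular myosin, went the other way with 5 reads in the anti-miR library and 30 in the control. Mybpc3 had 14 reads in the anti-miR library and 15 in the control. The 8 fibroblast markers summed to 103503 RPM in the anti-miR library and 102111 RPM in the control. Most of both sums came from the collagen genes Col1a1, Col1a2 and Col3a1. Col1a1 alone made up 50088 RPM in the anti-miR library and 49138 RPM in the control. By log2 ratio 5 of the fibroblast markers lay above 0 and 3 below. The 8 macrophage markers summed to 6851 RPM in the anti-miR library and 6148 RPM in the control, of which Lyz2 made up 3937 RPM in the anti-miR library and 2937 RPM in the control. By log2 ratio 4 of the macrophage markers lay above 0 and 4 below, with a median of −0.05. Endothelial markers differed in both directions. Pecam1 had 50 reads in the anti-miR library and 0 in the control, and Tek had 114 and 56. Vwf had 3 reads in the anti-miR library and 47 in the control, and Tie1 had 120 and 158. The neuronal markers Snap25, Syt1 and Rbfox3 had no read in either library, and the glial marker Sox10 had 24 reads in the anti-miR library and 11 in the control. In such bulk RNA, fewer cells of a type and less RNA per cell cannot be told apart.

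Most of the channel genes were scarce or listed at 0. No read was found in either library for 60 of the 131 members, or 45.8%, while 31.0% of all genes in the table had none. A further 29 members had reads but a mean under 1 RPM, and 42 reached 1 RPM, the floor for comparing ratios. These 42 were 32.1% of the members, against 61.5% of all genes. A count of 0 allows a level of up to 0.202 RPM in the anti-miR library and 0.187 RPM in the control, at 3 reads. A listed 0 in this table does not show that a gene was off, since the ribosomal protein gene Rpl38 also had no read and the housekeeping gene Gapdh had 34 reads in the anti-miR library and 45 in the control. Both genes were picked with their values known. All members together took 0.0531% of the reads in the anti-miR library and 0.0527% in the control.

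**Figure D1:**
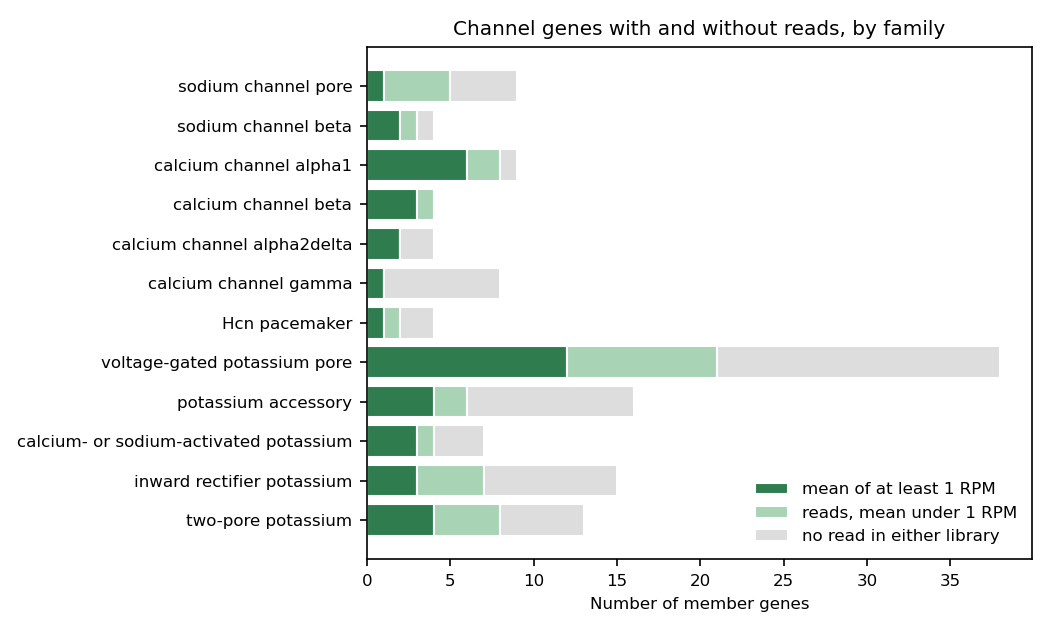
Number of member genes in each family by role (horizontal axis, genes; vertical axis, family), split into those with a mean of at least 1 RPM over both libraries, those with reads but a lower mean, and those with no read. The calcium channel beta family had reads for all 4 members, while 7 of 8 gamma subunit genes and 10 of 16 potassium accessory genes had none.

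Members with no read were a smaller share of the cardiac than of the non-cardiac list. Of the 32 cardiac genes, 8 had no read (25.0%), 11 lay below the floor and 13 above it (40.6%). Of the 99 non-cardiac genes, 52 had no read (52.5%), 18 lay below the floor and 29 above it (29.3%). The difference in these shares was not tested, since the lists were drawn up with earlier results of these data known. Cardiac genes with no read included Scn4b, Kcna5, Kcnd2, Kcnip2, Kcne2, Kcnj5 and Kcnj11. Of 27 non-cardiac genes listed as neuronal or skeletal muscle channels, 18 had no read and 2 reached the floor. All 6 listed as channels of macrophages, fibroblasts or smooth muscle reached it, against 61.5% of all genes. This list was also drawn up with earlier results known, so its share was not tested. These 6 genes summed to 136 RPM in the anti-miR library and 119 RPM in the control.

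Levels are compared between genes per length, as RPM per 1000 bases of the listed transcript (RPKM), and the 4 highest members were not on the cardiac list. Kcne4 led with 76.5 RPKM in the anti-miR library and 42.6 RPKM in the control. It encodes a single-pass accessory subunit that reduces the current of several voltage-gated potassium channels. Kcnn4, the intermediate-conductance calcium-activated potassium channel of macrophages, lymphocytes and fibroblasts, had 44.5 RPKM in the anti-miR library and 34.6 RPKM in the control. Cacnb3, a calcium channel beta subunit common outside the heart, had 29.0 RPKM in the anti-miR library and 30.5 RPKM in the control. The tandem-pore channel gene Kcnk6 had 19.3 RPKM in the anti-miR library and 18.6 RPKM in the control. Of the 12 highest members per length, 3 were cardiac, Kcnk2 and Kcnj2 among them. The non-cardiac genes Kcnv2, Kcnab2, Kcnd1, Kcna6 and Kcna3, also of these 12, had mean levels of 3.96 to 6.95 RPKM.

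Most sodium channel genes carried few reads: of 9 pore-type genes 4 had none and 4 lay below the floor, and of 4 beta subunit genes 2 reached it. Scn3b, a beta subunit that modulates gating, had 21 reads in the anti-miR library and 19 in the control. Scn2b had 4 reads in the anti-miR library and none in the control, and Scn4b had none in either. Scn7a, an atypical family member that senses extracellular sodium rather than voltage, was the 1 pore-type gene above the floor. It had 96 reads in the anti-miR library and 52 in the control, a ratio of 2.00 (1.41 to 2.86), and its log2 ratio of 0.98 lay just inside the 2-fold rule. Scn4a, the skeletal muscle sodium channel, had no read in the anti-miR library and 25 in the control. With the 0 set to 3 reads it was 7.70-fold lower, and the upper limit of the ratio by counting was 0.172. Scn3a, Scn8a, Scn9a and Scn10a, of neurons, had no read in either library.

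Calcium channels were the best represented pore-forming family, with 6 of 9 alpha1 genes above the floor. Cacna1c, the L-type channel of the ventricle (build rn4, chromosome 4, 154895691 to 155517389), had 28.6 RPM in the anti-miR library and 25.1 RPM in the control, from 424 and 402 reads. The ratio was 1.14 (0.993 to 1.31), and the levels per length were 3.49 RPKM in the anti-miR library and 3.05 RPKM in the control. Cacna1g, a T-type channel gene that is active in the fetal and neonatal heart, was also nearly equal, with 210 reads in the anti-miR library and 224 in the control, a ratio of 1.01 (0.836 to 1.23).

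The other T-type and L-type genes differed more, on few reads. Cacna1h, T-type, had 26 reads in the anti-miR library and 6 in the control, a ratio of 4.69 (1.89 to 13.9). Cacna1d, the L-type channel of the sinoatrial node, atria and endocrine cells, had 10 reads in the anti-miR library and 38 in the control, a ratio of 0.285 (0.127 to 0.582). These were the only cardiac members above the floor that were at least 2-fold apart, and they lay in opposite directions.

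The alpha1 genes of presynaptic calcium channels were both lower in the anti-miR library. Cacna1a, the P/Q-type channel, had 41 reads in the anti-miR library and 145 in the control, a ratio of 0.306 (0.211 to 0.435). Cacna1b, the N-type channel, had 11 reads in the anti-miR library and 73 in the control, a ratio of 0.163 (0.0780 to 0.309). The 8 neuronal and glial markers summed to 36.4 RPM in the anti-miR library and 28.5 RPM in the control, with Snap25, Syt1 and Rbfox3 at 0 in both.

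Of the accessory calcium channel subunits, the beta genes above the floor were close to equal and Cacna2d1 was higher in the anti-miR library. Cacna2d1, the alpha2delta subunit that brings the cardiac L-type channel to the membrane, had 12.8 RPM in the anti-miR library and 6.49 RPM in the control, a ratio of 1.97 (1.54 to 2.52). Cacnb2, the principal cardiac beta subunit, had 175 reads in the anti-miR library and 184 in the control, a ratio of 1.03 (0.832 to 1.27). Cacnb3 and Cacnb1 had 1076 and 89 reads in the anti-miR library, against 1226 and 94 in the control, and Cacnb4, of neurons, had 13 reads in the anti-miR library and none in the control. Of the gamma subunits, only Cacng4 had reads, 10 in the anti-miR library and 25 in the control, a ratio of 0.433 (0.186 to 0.933).

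Pacemaker channel transcripts were low. Hcn2, a channel opened by hyperpolarization and cyclic AMP, had 90 reads in the anti-miR library and 184 in the control, a ratio of 0.529 (0.407 to 0.685). Hcn4, the main pacemaker channel of the sinoatrial node, had 11 reads in the anti-miR library and none in the control. With the 0 set to 3 reads it was 3.97-fold higher, and the lower limit of its counting interval was 2.72. Hcn3 had no read in either library.

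Of the repolarizing potassium channels of the heart, the slow delayed rectifier pore and the transient outward pore gene Kcnd3 were measured best. Kcnq1, the pore of the slow delayed rectifier, had 139 reads in the anti-miR library and 138 in the control, a ratio of 1.09 (0.855 to 1.39). Its partner Kcne1 had 12 reads in the anti-miR library and none in the control. With the 0 set to 3 reads Kcne1 was 4.33-fold higher, and the lower limit of its counting interval was 3.01. Kcnh2, the pore of the rapid delayed rectifier, had 11 reads in the anti-miR library and 1 in the control, a ratio of 11.9 (1.73 to 512). Kcnd3 had 7.42 RPM in the anti-miR library and 4.55 RPM in the control, a ratio of 1.63 (1.20 to 2.22), while its relative Kcnd2 and the auxiliary subunit gene Kcnip2 had no read.

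Relatives that carry other outward currents of the heart were at or near 0. Kcna4, a transient outward pore gene, had 6 reads in the anti-miR library and none in the control. Kcna5, the ultrarapid delayed rectifier gene, had no read in either.

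Inward rectifiers set the resting potential, and the main cardiac one was present at a low level. Kcnj2 had 65 reads in the anti-miR library and 89 in the control, a ratio of 0.790 (0.565 to 1.10). Its relative Kcnj12 had 21 reads in the anti-miR library and 4 in the control, a ratio of 5.68 (1.92 to 22.8). Kcnj8, counted here on the cardiac list, is also the pore of ATP-sensitive channels in smooth muscle and pericytes. It had 22 reads in the anti-miR library and 4 in the control, a ratio of 5.95 (2.02 to 23.8). Kcnj11, the pore of the ventricular ATP-sensitive channel, had no read in either library, while the regulatory subunit gene Abcc9, no member, had 10.2 RPM in the anti-miR library and 12.5 RPM in the control. The acetylcholine-activated pair was unequal, with Kcnj3 at no read in the anti-miR library and 16 in the control, and Kcnj5 at none in either. Kcnj14 and Kcnj15, not on the cardiac list, had 99 and 68 reads in the anti-miR library, against 85 and 57 in the control.

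**Figure D2:**
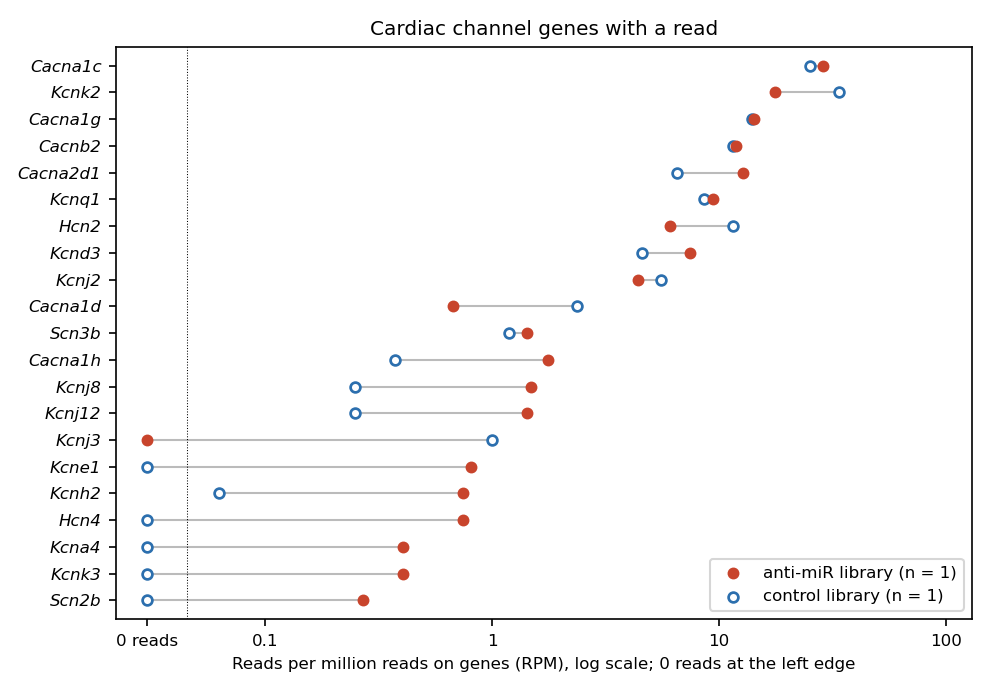
Level of 21 cardiac members with a read (vertical axis, genes ordered by mean level; horizontal axis, RPM on a log scale, with 0 reads drawn at the left edge) in the anti-miR library (filled) and the control library (open), 1 library each. The 9 highest genes, from Cacna1c to Kcnj2, had reads in both libraries, and 6 of the others had 0 reads in one of them.

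The tandem-pore channel Kcnk2, which opens on stretch, heat and lipids, was the largest difference among cardiac members of at least 20 RPM. It had 17.7 RPM in the anti-miR library and 33.8 RPM in the control, from 262 and 542 reads (chromosome 13, 105376001 to 105516787). The ratio was 0.523 (0.450 to 0.607) and the log2 value −0.93, just short of the 2-fold rule. Kcnk3, the acid-sensitive relative, had 6 reads in the anti-miR library and none in the control. Kcnk6, which is not on the cardiac list, stood at 36.3 RPM in the anti-miR library and 34.9 RPM in the control, a ratio of 1.04 (0.923 to 1.17).

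Outside the cardiac list, the abundant potassium channel genes differed by less than 2-fold. Kcne4 (chromosome 9, 78200904 to 78202092) had 708 reads in the anti-miR library and 427 in the control, or 47.8 and 26.6 RPM. Its ratio of 1.79 had a counting interval of 1.59 to 2.03. Kcnn4 had 81.4 RPM in the anti-miR library and 63.4 RPM in the control, a ratio of 1.28 (1.18 to 1.40). The macrophage markers had log2 ratios of −0.57 for C1qa to 0.42 for Lyz2, in both directions and with none of the 8 at 0, and their part in the Kcnn4 value was not tested. Kcna3, a channel of lymphocytes and macrophages, went the other way with a ratio of 0.907 (0.675 to 1.22). Kcnv2, an electrically silent subunit that modifies other channels, had 35.8 RPM in the anti-miR library and 36.4 RPM in the control.

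Several non-cardiac potassium genes of low level had fewer reads under the anti-miR virus. Kcnq5, a relative of Kcnq1 found in neurons and smooth muscle, had 18 reads in the anti-miR library and 81 in the control, a ratio of 0.240 (0.136 to 0.404). Kcnb2, a delayed rectifier gene, had 2 reads in the anti-miR library and 42 in the control, a ratio of 0.0515 (0.00604 to 0.198). Kcnk12 had no read in the anti-miR library and 38 in the control, at least 11.7-fold lower. Kcns3, Kcnip3 and Kcnk13 had ratios of 0.234 to 0.406. Of the non-cardiac members above the floor, only Kcnh1 and Kcns1 were at least 2-fold higher. They had 62 and 24 reads in the anti-miR library, against 32 and 8 in the control. Kcnma1 and Kcnmb1 encode the pore and beta subunit of the large-conductance channel of smooth muscle. They had 19 and 15 reads in the anti-miR library, against 37 and 23 in the control. Their ratios of 0.556 (0.302 to 0.991) and 0.706 (0.342 to 1.41) were less than 2-fold apart. The 5 measured smooth muscle markers summed to 1115 RPM in the anti-miR library and 1110 RPM in the control. Of these sums, Tagln made up 909 RPM in the anti-miR library and 901 RPM in the control.

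**Figure D3:**
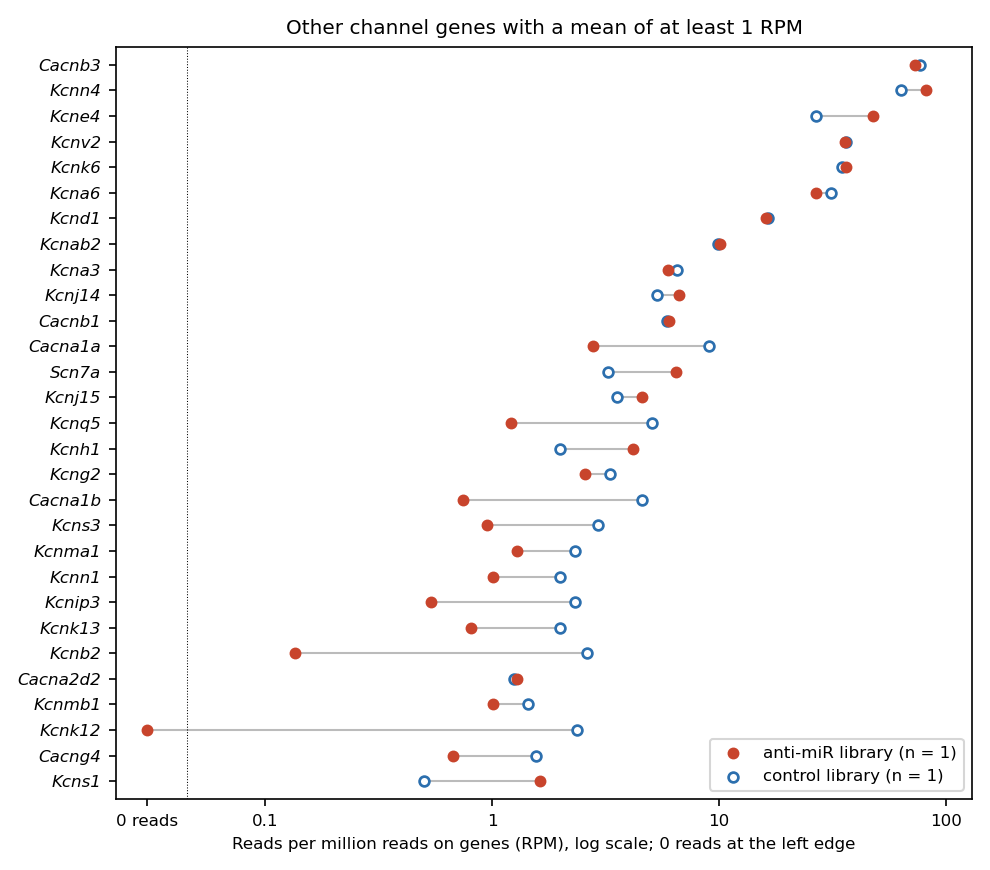
Level of the 29 non-cardiac members with a mean of at least 1 RPM (vertical axis, genes ordered by mean level; horizontal axis, RPM on a log scale, with 0 reads drawn at the left edge) in the anti-miR library (filled) and the control library (open), 1 library each. Pairs of points lie close together for most upper genes, with Kcne4 (anti-miR 47.8, control 26.6 RPM) apart, and from Cacna1a (anti-miR 2.77, control 9.04 RPM) downward 11 pairs are at least 2-fold apart.

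Counted over the members above the floor, 3 of 42 were at least 2-fold higher (7.14%) and 10 were at least 2-fold lower (23.8%). Among all 10365 genes above the floor 4.85% were higher and 3.56% lower by the same rule. The median log2 ratio was −0.05 over the members and 0.03 over all genes. It was 0.04 over the 13 cardiac members, with 1 higher and 1 lower, and −0.14 over the 29 non-cardiac members, with 2 higher and 9 lower. The non-cardiac median was −0.00053 with a floor of 5 RPM and 0.03 with at least 20 reads in each library. With a floor of 5 RPM the counts over all members were 0 higher and 1 lower, Cacna1a, so the calls rest on genes of few reads.

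The ratios spread widely at low levels for all genes, and most members lie there. Between 1 and 5 RPM, 12 of 21 members were at least 2-fold apart (57.1%), against 41.9% of all genes of that level. In this band 3 members were higher (14.3%) and 9 lower (42.9%), against 23.6% and 18.3% of all genes. Between 5 and 20 RPM, 1 of 12 members was 2-fold apart (8.33%), against 9.44% of all genes. Between 20 and 100 RPM, 0 of 9 members were, against 0.669%.

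The central 95% of log2 ratios of all genes ran from −2.96 to 4.89 in the lowest of these bands, from −1.13 to 1.29 in the middle and from −0.61 to 0.67 in the highest. In the lowest, Kcnb2 at −3.53 and Kcnk12 at −4.63 lay below this range. In the middle, Cacna1a at −1.67 lay below it, and Cacna2d1 at 0.96 and Hcn2 at −0.91 lay inside. In the highest, Kcne4 at 0.84 lay above it and Kcnk2 at −0.93 below, while the other 7 members were inside.

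**Figure D4:**
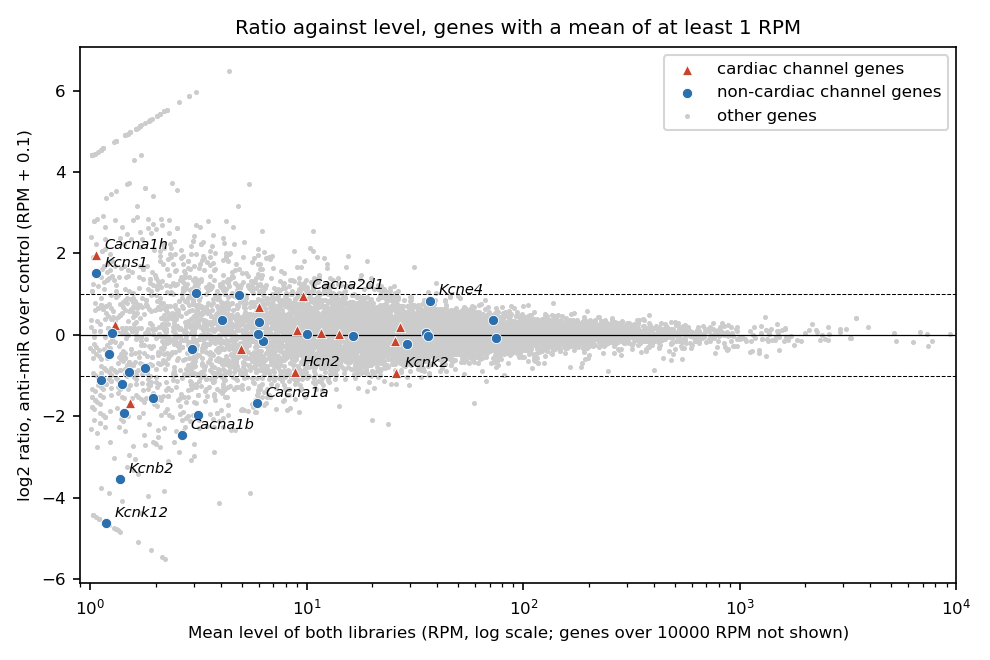
Log2 ratio of the anti-miR over the control library (vertical axis, on RPM + 0.1) against the mean level of both libraries (horizontal axis, RPM on a log scale) for genes averaging 1 RPM or more, with cardiac members as triangles, non-cardiac members as circles and other genes in grey. Dashed lines mark 2-fold; the cloud of all genes narrows with level, and Kcne4 (0.84) and Kcnk2 (−0.93) lie outside the central range of genes between 20 and 100 RPM.

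Below the floor, more genes had the higher level in the anti-miR library, among channels as in the whole table. Of 29 members with reads there, 19 were higher in the anti-miR library (65.5%), against 65.2% of the 1265 genes of the table below the floor. The cardiac members divided into 8 higher (Scn2b, Hcn4, Kcna4, Kcnh2, Kcne1, Kcnj12, Kcnj8 and Kcnk3) and 3 lower, with Kcnj3 among them. Among these 29, reads in the anti-miR library alone were found for 14 (48.3%), against 52.4% of all genes below the floor, and reads in the control alone for 5 (17.2%), against 19.2%. Over the whole table the shares were 10.7% of the 131 members against 4.29% of all genes for the anti-miR library alone, and 4.58% against 1.56% for the control alone. Below the floor lay 29 of the 131 members and 1265 of the 16846 genes. Of the 11 cardiomyocyte markers, 4 also had reads in the anti-miR library alone and none in the control alone. Of the 6 above the floor, 5 had a log2 ratio over 0 and Myl2 was lower in the anti-miR library. Mybpc3, below the floor, was near equal. The part of these markers in the values of the low cardiac channels was not tested.

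Some neighbouring channel genes differed in level, given here as examples, with 45.8% of all members at no read. Other neighbours, such as Kcnj9 and Kcnj10 on chromosome 13, both had no read. Kcna6, a voltage-gated potassium gene, had 394 reads in the anti-miR library and 500 in the control, while Kcna1 and Kcna5, the next along chromosome 4, had none. Kcnj2 had 65 reads in the anti-miR library and 89 in the control, and Kcnj16, 59035 bases away on chromosome 10, had none. Cacna1c lies 28911 bases from Cacna2d4, which had no read. On chromosome 8, Scn11a had 7 reads in the anti-miR library and 3 in the control, and Scn10a, 34035 bases away, had none. In the gamma subunit cluster of chromosome 10, Cacng4 had reads, while Cacng1 and Cacng5 on either side had none.

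Genes that work with these channels but fall outside the rule were mostly within 2-fold. Of 22 such companions 20 were in the table and 15 reached the floor, of which 13 were less than 2-fold apart, with a median log2 ratio of 0.03. Cav3, the muscle caveolin, was highest with 57 reads in the anti-miR library and 26 in the control. Abcc8, Dpp6, Dpp10 and Fgf12 had no read in either library.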

How the data were processed

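Poly(A) RNA was sequenced with a strand-specific kit, per the labels' protocols. What the authors deposited is 1 table of signal, a scaled number of reads for each gene. HOMER made it, per the file headers, from exons of RefSeq transcripts (rn4) with the strand option set to the minus strand and transcripts condensed to genes. The submitters' processing notes also name CASAVA 1.8.2 and STAR 2.2.0c, without a role. The rule for multi-mapping reads is not given, so levels of close paralogs are uncertain. The deposited columns sum to 15423812 (anti-miR) and 15423813 (control). All values up to 400 reads were whole multiples of 1 read within 0.01 deposited units (100% of 5903 and 5294 values), and whole reads were recovered from them. From these, RPM (reads per 1000000 reads on genes) and RPKM with the deposited transcript length were computed (Python 3.11.15, scipy 1.17.1). Ratios are anti-miR over control of reads per depth. Log2 ratios use RPM + 0.1, which understates low genes; a 2-fold rule was applied to them at a mean of at least 1 RPM. With 1 library per group no test across conditions exists. An exact binomial test on reads, Benjamini-Hochberg adjusted at 0.05 and added after seeing the data, called 6748 of 11630 genes; it compares these libraries, not the conditions. The calculations were tested on simulated data.

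Named are the cardiac members, the 12 highest per length, the highest of each family and those at least 2-fold apart; others named were chosen after their values were seen. Some genes that this rule takes in are not reported here. Members and lists were chosen with earlier results of these data known. Positions are those of the deposited table. Of the members, 129 accessions matched the RefSeq gene table, 128 under the same symbol.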

Additional observations from a re-analysis of the deposited data

How the results depend on the processing

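The counts of members at least 2-fold apart depend on the low-level genes. The count of higher members was 3. It was 6 with a floor of 0.5 RPM, 0 with 5 RPM, 19 with no floor, 1 with a pseudocount of 1 RPM, and 7 with a 1.5-fold rule. The count of lower members was 10. It was 1 with a floor of 5 RPM and 17 with no floor, and it lay between 8 and 14 under the other alternatives. Median-of-ratios and upper-quartile scaling left both counts as they were, as did requiring the test on reads. The median over all members was −0.05 and lay between −0.11 and 0.03 under the alternatives, changing sign with a floor of 5 RPM, with no floor and with at least 20 reads in each library. The last of these was added after seeing the data. The non-cardiac median was −0.14, between −0.29 and 0.03, and changed sign with at least 20 reads in each library. The cardiac median was 0.04, between 0.01 and 0.21. Members without a read were 60, or 65 with up to 3 reads allowed in each library. Of 45 named members with a read, 9 left their counting interval with a pseudocount of 1 RPM, and 0 at least 2-fold apart changed sign. Of the 12 highest members per length, 9 were also among the 12 highest by RPM. No replicate could be left out, and values of few reads are limited by depth.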
